A study of Mus musculus with 14 samples.

Results

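The genes described here encode the Groucho co-repressors (Tle1, Tle2, Tle3 and Tle4), the TCF/LEF factors (Tcf7, Lef1, Tcf7l1 and Tcf7l2), β-catenin (Ctnnb1) and Axin2. Chromatin accessibility at these 10 genes was taken from bulk ATAC-seq, in which a transposase inserts adapters into open DNA, of long-term haematopoietic stem cells (LT-HSCs). A consensus peak was assigned to a gene when that gene had the nearest protein-coding span (RefSeq, mm10) within 50 kb, or when the peak lay within 1 kb of an end of the gene. This gave 73 of 57289 peaks. Tcf7l2 had 15, Tle3 had 11, Tcf7 and Tcf7l1 had 10 each, Lef1 and Tle4 had 7 each, Ctnnb1 had 5, Tle1 had 4, Tle2 had 3 and Axin2 had 1. Genes with any peak had a median of 2.

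Without Wnt signals, TCF/LEF factors bind DNA together with Groucho proteins, which recruit histone deacetylases and keep target genes silent. When a Wnt ligand is received, β-catenin escapes its destruction complex, enters the nucleus and displaces Groucho from TCF/LEF, so that targets such as Axin2 are transcribed. In blood formation, TCF-1 (the product of Tcf7) and LEF-1 are best known for their part in lymphocyte development, and Groucho proteins also serve RUNX factors.

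The cells were sorted as Lin- Sca1+ cKit+ CD34- Flt3- from bone marrow of C57BL/6 mice. Before lysis, cells of every group stayed at 37 °C for 16 h in 3% O2 and 5% CO2, in buffered saline with 10% serum and antibiotics. The groups were young mice of 10 to 16 weeks (n = 4 libraries), aged mice of over 80 weeks (n = 5), and aged cells given 100 µM Rhosin, an inhibitor of the GTPase RhoA, during that incubation (n = 5, here aged Ri). As every group had this incubation, freshly isolated cells were not compared. The labels name no vehicle control, no sex and no number of animals per library, and any pooling is not stated. The series calls the libraries biological replicates.

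Some numbers concern the whole series. Each library held 765533 to 3176246 reads in peaks, with a median of 7 to 30 reads per peak, and each of the 3 sequencing batches held all groups. The share of reads in peaks at gene ends was 47.0% to 50.8% in young, 38.8% to 49.6% in aged and 35.9% to 46.8% in aged Ri libraries. Of 10 stem-cell marker genes, 9 had a peak at a gene end (Slamf1 had none), with summed levels of 332 to 508 CPM (peak reads divided by library size, scaled to 1e6) in young, 292 to 419 in aged and 253 to 407 in aged Ri libraries. Of the B-cell genes reported here, Cd79a, Cd79b and Ebf1 had one, while Ms4a1, Pax5, Blk and Vpreb1 had none. The B-cell sum was 164 CPM in young replicate 1 and 48.1 to 88.0 in the other 13 libraries. T-cell sums (5 of 10 genes, with Cd3e, Cd3g, Cd8a, Cd8b1 and Themis without a peak) ran from 85.2 to 141 CPM in young, 69.8 to 145 in aged and 91.1 to 120 in aged Ri libraries. Megakaryocyte sums (5 of 6 genes) were 88.8 to 183, 191 to 280 and 146 to 216 CPM. In bulk samples, fewer cells with an open site and less signal per cell cannot be told apart.

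Peaks are named by gene and by the distance of the peak centre from the nearest RefSeq start site of that gene, minus for upstream. For Lef1, Tcf7 and Tcf7l2, which have several start sites, this can be an internal start. Every peak is 700 bp wide, so CPM levels can be compared between peaks per length. Of the 73 peaks, 10 lay within 1 kb of a start site, 39 elsewhere in a gene span (exons and introns were not separated), 20 upstream and 4 downstream.

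The sequences before 4 start sites are shown. They set the most open promoter of the group (Tle4) and the only Axin2 peak beside both internal starts of Lef1. Of these internal starts, 1 carries CTTTGA, 1 form of the core letters that TCF/LEF factors recognise. Each sequence is the 250 bases before a start site, 5′ to 3′ on the gene's strand, from RefSeq (GRCm38.p6). Capitals mark CTTTGA or its reverse complement TCAAAG, the motif searched on both strands. The Tle4 window lies at chr19:14598184-14598433 (minus strand), that of Axin2 at chr11:108920099-108920348 (plus strand), and those of Lef1 at chr3:131112541-131112790 and chr3:131156044-131156293 (plus strand).
Tle4: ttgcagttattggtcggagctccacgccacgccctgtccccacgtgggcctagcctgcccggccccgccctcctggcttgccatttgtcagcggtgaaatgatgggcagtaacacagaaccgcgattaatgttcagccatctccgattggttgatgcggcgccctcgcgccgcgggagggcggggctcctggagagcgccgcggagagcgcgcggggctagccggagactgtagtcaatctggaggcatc
Axin2: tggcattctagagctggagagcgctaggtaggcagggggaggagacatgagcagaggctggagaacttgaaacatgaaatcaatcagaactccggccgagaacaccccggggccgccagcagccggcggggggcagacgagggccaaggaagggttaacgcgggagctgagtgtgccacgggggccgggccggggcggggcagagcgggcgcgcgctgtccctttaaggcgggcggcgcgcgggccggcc
Lef1 first internal start: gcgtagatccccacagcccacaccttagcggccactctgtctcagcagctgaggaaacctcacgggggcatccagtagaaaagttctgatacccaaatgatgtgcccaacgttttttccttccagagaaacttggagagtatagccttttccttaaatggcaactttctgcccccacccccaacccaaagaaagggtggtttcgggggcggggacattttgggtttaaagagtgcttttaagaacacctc
Lef1 second internal start: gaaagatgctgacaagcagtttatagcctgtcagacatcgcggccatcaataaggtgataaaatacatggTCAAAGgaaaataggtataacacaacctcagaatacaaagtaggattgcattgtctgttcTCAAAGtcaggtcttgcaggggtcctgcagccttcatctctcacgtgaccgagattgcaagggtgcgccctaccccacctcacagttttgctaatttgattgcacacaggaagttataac

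Among the 17 windows of the 10 genes, CTTTGA or TCAAAG occurred only before the second internal start of Lef1. There TCAAAG stood 180 and 120 bases before the start. Related letters such as CTTTGT were not searched, so other windows may hold them. Of 32851 RefSeq windows of the same length, 13.8% held the motif, and of the 13850 windows of genes with an open promoter, 10.4% did. That Lef1 window overlapped no peak, and the nearest Lef1 peak was centred 1.4 kb after the start. The first internal start of Lef1 also overlapped no peak in its window, and the peak at -0.7 kb ended just before it. The Tle4 window was 65.2% G or C, that of Axin2 69.2%, and the internal Lef1 windows 50.8% and 44.8%. A match is a description of the letters and not of a bound site.

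The start sites of the Groucho genes Tle4 and Tle1 were the most open of the group. The Tle4 promoter peak (chr19:14598045-14598744) held 169 ± 33.1 CPM (mean ± SD, n = 14 libraries) and ranked at the 99.8th percentile of all peaks. Tle1, a co-repressor of the same family, followed with 83.3 ± 20.8 CPM. Each stood above the next in all 14 libraries. The promoters of Ctnnb1 (39.4 ± 17.7 CPM), Tle3 (36.0 ± 7.01) and Tcf7l2 (32.3 ± 9.95) did not separate: Ctnnb1 was above Tle3 in 8 libraries of 14 and Tle3 above Tcf7l2 in 7. Axin2, the negative-feedback target that scaffolds the destruction complex, held 27.5 ± 9.75 CPM and was above Tcf7l1 in all 14 libraries. Those of the other 3 TCF/LEF genes were lower. Tcf7l1, mostly a repressor within the family, had 14.9 ± 3.88 CPM, Lef1 12.2 ± 4.65 near its first internal start, and Tcf7 9.29 ± 3.65. The windows before the earlier starts of Lef1 overlapped no peak. Neighbours in this lower part of the order overlapped, with Tcf7l1 above Lef1 and Lef1 above Tcf7 in 10 libraries each. The internal start of Tcf7l2 was lowest at 5.59 ± 2.44 CPM. Tle2 had no peak at its start site, and its most open peak stood 3.5 kb upstream at 45.7, 55.7, 46.9 and 58.0 CPM in young and 38.5 to 60.2 in the other 10 libraries.

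**Figure D1:**
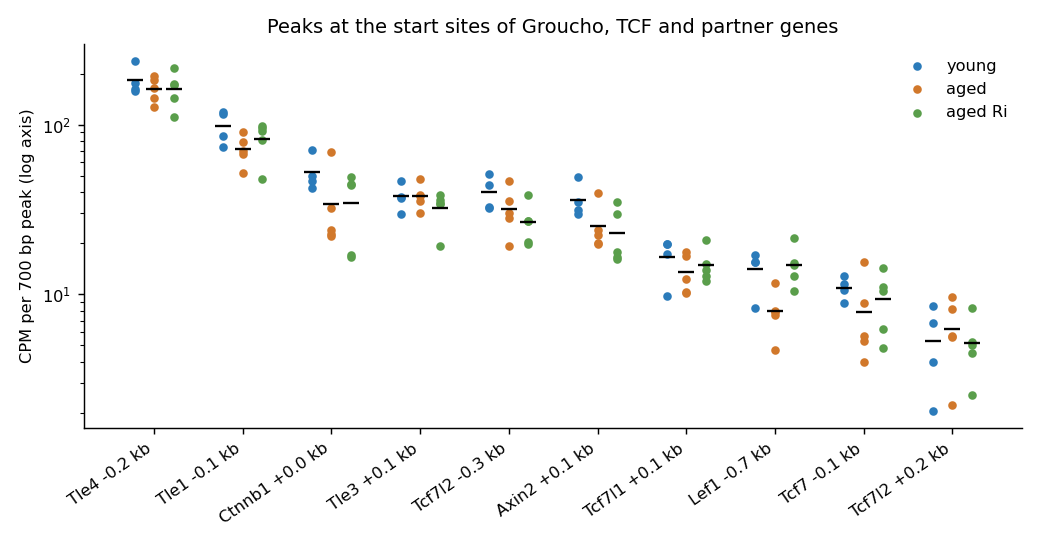
Accessibility (CPM per 700 bp peak, log axis) at the 10 peaks near start sites; points are libraries coloured by group and short lines are group means. Tle4 lies highest, between 111 and 236 CPM, and the internal start of Tcf7l2 lowest, between 2.06 and 9.58.

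The comparison of aged with young cells asked which accessible sites differ with age. The genes were chosen by what they encode and by the measured age difference at Tle3, so the values that follow describe it. They are given without p-values, and calls of the fit over all peaks are only counted beside their share of all peaks and support no difference here. Of all 56235 peaks tested, 3214 were called (adjusted p under 0.05, edgeR quasi-likelihood test with a batch term), or 5.72%. Of the 73 peaks here 3 were called, 1 higher and 2 lower in aged cells, beside 4.45% higher and 1.26% lower among all peaks. The median log2 difference over the 73 was -0.12, against -0.01 over all peaks. Of the 10 promoter peaks 9 were lower in aged cells, with a median of -0.35. Of all promoter peaks 74.9% were lower, with a median of -0.24. Scaling the libraries on gene-end peaks moved the median of all peaks from -0.01 to 0.20, and then 4 of the 73 were called higher and 1 lower, beside 7.74% of all peaks, and 7 of the 10 promoters were lower. With local (loess) scaling 2 were called higher and 3 lower, beside 6.18% of all peaks. With that share of gene-end reads added as a covariate none was called, and 0.258% of all peaks were.

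At Tle3, a Groucho co-repressor that TCF and RUNX factors can recruit, 2 neighbouring upstream peaks went opposite ways with age. The peak at -50.0 kb (chr9:61321984-61322683) held 19.5, 29.6, 17.0 and 18.9 CPM in young libraries, from 12 to 44 reads. Aged libraries held 5.61, 9.96, 4.51, 6.84 and 8.46 CPM, and aged Ri libraries 9.37, 12.8, 9.04, 12.2 and 8.09. Every young library was above every other library. The log2 difference of aged from young was -1.60 ± 0.29 (SE), or 3.04-fold lower, and within the 3 batches it was -1.27, -1.83 and -1.07.

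The peak at -44.0 kb (chr9:61328052-61328751) showed the reverse. It held 4.89, 10.3, 12.8 and 6.29 CPM in young, 24.9, 18.2, 19.5, 23.3 and 11.6 in aged, and 24, 17.9, 36.8, 28.0 and 21.0 in aged Ri libraries. Young and aged libraries overlapped by a single aged library, and no young library reached any aged Ri library. The log2 difference of aged from young was 1.28 ± 0.29, or 2.43-fold higher, and 1.91, 0.84 and 0.79 within batches 1, 2 and 3. Without young replicate 1 it was 1.04.

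The other 9 Tle3 peaks were not among the counted calls. Its most open peak, at -34.8 kb, held 66.2 to 141 CPM in young, 70.9 to 124 in aged and 68.7 to 157 in aged Ri libraries, so the groups overlapped almost fully. The promoter peak held 29.8 to 46.6, 30.1 to 48.1 and 19.3 to 38.3 CPM in the same order. The peak at -22.5 kb was lower in every aged library (8.02, 7.03, 12.8, 10.9 and 10.7 CPM) than in every young one (15.5, 15.8, 15.6 and 17.4), with a log2 difference of -0.68 ± 0.26. Summed over its 11 peaks, Tle3 held 324 ± 33.4 CPM in young (n = 4), 291 ± 46.0 in aged and 315 ± 50.3 in aged Ri libraries (n = 5 each). These sums overlapped between all groups.

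**Figure D2:**
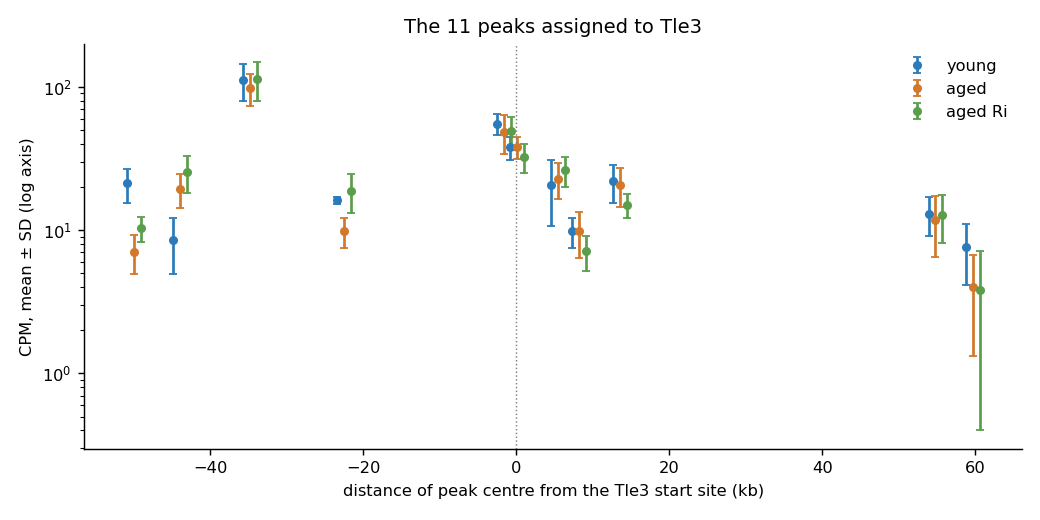
Accessibility (CPM, log axis) of the 11 Tle3 peaks against the distance of the peak centre from the start site (kb); points are group means and bars SD, with the groups drawn slightly apart. At -50.0 kb the young mean (21.2 CPM) lies above the aged mean (7.08), and at -44.0 kb it lies below (8.56 against 19.5).

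The assignment limit of 50 kb fell close to these peaks. The Tle3 peak at -50.0 kb lay 49.6 kb from the gene span, the farthest of all 73, and the next one, at -44.0 kb, lay 43.6 kb away. Just outside, a peak 56.4 kb from Tle3 held group means of 4.52 CPM in young, 10.5 in aged and 15 in aged Ri libraries. Of 5 peaks between 50 and 60 kb from the listed genes and from no nearer gene, 2 lay before Lef1. The one 55.4 kb from Lef1 held means of 30.4 CPM in young, 6.36 in aged and 5.43 in aged Ri libraries, and the one at 52.6 kb held 19.5, 10.5 and 15.8.

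The remaining Groucho genes held none of the 3 counted peaks. At Tle4, a peak 128.2 kb inside the gene was added after its values were seen. It held 1.45 to 2.84 CPM in young and 4.01 to 8.90 in aged libraries without overlap, on 2 to 17 reads. The Tle4 promoter held 158, 177, 236 and 162 CPM in young and 144, 127, 165, 183 and 195 in aged libraries, which overlap. At Tle1 the promoter held 73.7 to 119 CPM in young and 51.6 to 90.4 in aged libraries, with a log2 difference of -0.39 ± 0.21. Groups that did not overlap between young and aged were found at 4 of the 73 peaks (Tcf7 -22.5 kb and Tle4 +128.2 kb higher, Tle3 -50.0 kb and Tle3 -22.5 kb lower), beside 6.07% of all peaks.

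Among the TCF factors, the peak counted among the 3 was Tcf7 +9.2 kb (chr11:52273092-52273791), within the gene of TCF-1. Young libraries held 34.2, 7.56, 19.9 and 7.26 CPM, aged libraries 11.2, 7.03, 5.26, 8.90 and 7.12, and aged Ri libraries 10.4, 7.66, 10.7, 9.35 and 12.5. The log2 difference of aged from young was -1.13 ± 0.35, with young replicates 1 and 3 the highest of all libraries. Within batches 1, 2 and 3 it was -1.83, -0.76 and -0.02. Without both of them it was 0.05, and without replicate 1 alone -0.43.

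Several other peaks at Tcf7 and Lef1 also varied between the young libraries. They were chosen after their values were seen. Tcf7 +14.1 kb held 59.5, 11.7, 41.2 and 3.39 CPM in young and 2.26 to 15.7 in the other 10 libraries. Lef1 -3.2 kb held 57.7, 14.4, 15.6 and 2.90 in young and 0.752 to 17.1 in the others. Lef1 +5.2 kb held 16.0, 7.56, 19.9 and 2.90, and 0.323 to 7.53 in the others. None of these 3 was called between any groups, and their log2 differences of aged from young were -1.92 ± 0.82, -1.74 ± 0.88 and -1.50 ± 0.56. One of the 2 end peaks of Cd79a, which encodes a chain of the B-cell receptor, held 44.0 CPM in young replicate 1, 22.7 in young replicate 3 and 0.646 to 8.90 in the other 12 libraries. The other, shared with Arhgef1, held 33.3, 34.4, 27.0 and 52.2 CPM in young libraries, and Cd79b, the partner chain, 12.9, 7.56, 5.68 and 4.84. Over the whole B-cell list the young sums were 164, 76.3, 88.0 and 80.3 CPM, so replicate 1 stood above the rest and replicate 3 stood near replicate 4. T-cell sums went another way, with 105, 123, 85.2 and 141 CPM. In that list Lck, a kinase of T cells, held 10.2, 5.50, 7.10 and 6.29 CPM, while Cd3d, a chain of the T-cell receptor complex, held 50.2, 91.4, 56.8 and 101. The part of other cells in these values was not tested.

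**Figure D3:**
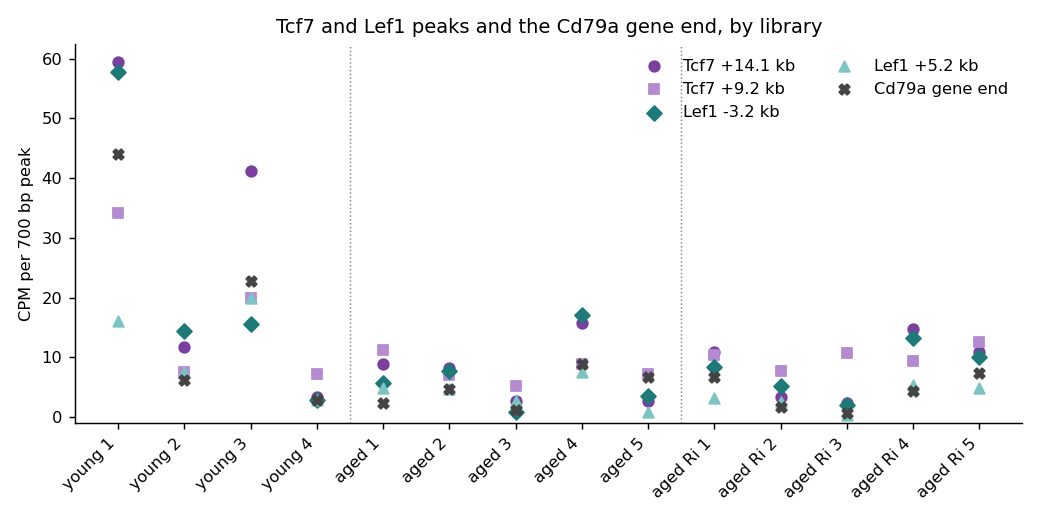
Accessibility (CPM) in each of the 14 libraries at 2 Tcf7 peaks, 2 Lef1 peaks and 1 of the 2 end peaks of Cd79a; dotted lines separate young, aged and aged Ri libraries. Young replicate 1 is highest at Tcf7 +14.1 kb, Lef1 -3.2 kb and Cd79a, with 59.5, 57.7 and 44.0 CPM, while young replicate 4 holds 3.39, 2.90 and 2.90.

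The other TCF peaks were not among the counted calls. The Tcf7 promoter held 8.93 to 12.8 CPM in young and 4.01 to 15.6 in aged libraries. A Tcf7 peak at -22.5 kb was added after its values were seen. It was higher in every aged library (10.2 to 17.6 CPM) than in every young one (6.77 to 8.93), with a log2 difference of 0.88. Of the 10 Tcf7l1 peaks 8 were lower in aged cells, with a median of -0.49 (7 of 10 with gene-end scaling), and Tcf7l2, with 15 peaks, had a median of 0.04. Tcf7l2 encodes TCF-4, the family member most often studied in gut and pancreas. At Lef1, 5 of 7 peaks were lower, with a median of -0.69.

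The most open peaks of the TCF genes overlapped between young and aged libraries. Tcf7 -35.7 kb held 14.2 to 24.9 CPM in young, 15.2 to 29.7 in aged and 21.0 to 25.5 in aged Ri libraries. Lef1 +1.4 kb, just after the internal start with the TCAAAG letters, held 2.84 to 18.4, 11.7 to 25.8 and 16.2 to 20.4 CPM. Of the young libraries, only replicate 4 reached the aged Ri range there. The promoter of Tcf7l1 held 9.77 to 19.9, 10.2 to 17.8 and 12.0 to 21.0 CPM, and that of Tcf7l2 32.3 to 51.3, 19.3 to 46.3 and 19.7 to 38.4. Within Tcf7l1, the peak at +128.8 kb was added after its values were seen. It held 15.1 to 17.4 CPM in young libraries, and aged replicate 5, at 16.0, was the one aged library to reach them. Its aged Ri libraries held 6.78 to 14.4 CPM, all below the young ones, and it was not called in either comparison with aged Ri libraries.

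At Ctnnb1, the promoter held 42.2, 46.7, 49.7 and 71.1 CPM in young and 24.1, 22.8, 22.2, 32.2 and 69.0 in aged libraries. Aged replicate 5 lay among the young values and the other 4 below them, and the log2 difference was -0.63 ± 0.27. Axin2 gave a like picture at its only peak (chr11:108920141-108920840). Young libraries held 35.1, 29.6, 31.2 and 48.9 CPM, and aged libraries 20.1, 22.3, 19.9, 24 and 39.6. Again only aged replicate 5 reached the young values, and the log2 difference was -0.50 ± 0.22. The other Ctnnb1 peaks overlapped between groups. The upstream peak at -18.2 kb is an example added after its values were seen. It held up to 45.4 CPM in young, 25.8 to 47.0 in aged and 24 to 55.5 in aged Ri libraries.

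Adding Rhosin to aged cells gave no called peak among the 73 in the fit over all 14 libraries with sequencing batch (edgeR). Of all 56235 peaks 251, or 0.446%, were called. At an unadjusted p under 0.05 there were 8 of the 73, beside 10.2% of all peaks, and DESeq2 called 0 of the 56 for which it gave an adjusted p, beside 0.61% of all peaks. Same-numbered aged and aged Ri libraries, which share a sequencing batch, deviated together from their group means. With batch removed, the correlation within the 5 pairs ran from -0.227 to 0.472, so pairing beyond batch is not shown for each. With only the aged and aged Ri libraries and batch, 4 peaks were called, 3 higher and 1 lower, beside 1.58% of all peaks. They were Lef1 -0.7 kb, Tcf7l2 +27.3 kb, Tle3 -22.5 kb and Tle2 +5.4 kb. The comparison was also fitted on these libraries with the replicate number as a block in place of batch. Values given below as without the block are from all 14 libraries, so they differ by more than the block. With the block 6 of the 68 peaks that passed its filter were called, 5 higher and 1 lower, beside 4.42% of all peaks (2.89% higher and 1.53% lower). The groups are compared in what follows by their 5 pairs, given in replicate order.

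At Lef1, whose product is a TCF family member of lymphoid and stem cells, 3 of 7 peaks rose with Rhosin in the blocked fit, each in 5 of 5 pairs. The peak near its first internal start, Lef1 -0.7 kb (chr3:131111791-131112490), held 8.02, 4.69, 7.90, 7.53 and 11.6 CPM in aged libraries and 10.4, 15.3, 14.8, 12.9 and 21.4 in aged Ri libraries. It was 1.88-fold higher with Rhosin (log2 0.91 ± 0.24, adjusted p = 0.0101 with the block and 0.123 without, edgeR). With only the aged and aged Ri libraries and batch, the adjusted p was 0.045 (edgeR). Within batches 1, 2 and 3 the log2 difference was 0.93, 0.77 and 0.83. The young libraries, at 15.5, 8.25, 17.0 and 15.5 CPM, overlapped both groups.

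Lef1 -25.0 kb (chr3:131084998-131085697) held 11.2, 5.27, 11.7, 8.21 and 11.1 CPM in aged and 12.0, 13.6, 25.2, 15.1 and 16.6 in aged Ri libraries. It was 1.76-fold higher with Rhosin (log2 0.82 ± 0.22, adjusted p = 0.0167 with the block and 0.185 without, edgeR), with 0.65, 0.93 and 0.53 in batches 1, 2 and 3. This was the only peak of the 73 at which aged and aged Ri libraries did not overlap, beside 1.56% of all peaks. The young libraries were lower still, at 5.77, 7.56, 7.10 and 7.26 CPM. The third peak, Lef1 -16.7 kb (chr3:131139285-131139984), lies inside the gene before the second internal start and was added after its values were seen. It rose from 4.01, 6.44, 8.65, 6.16 and 3.56 CPM to 7.29, 10.2, 15.8, 11.5 and 9.70 (log2 0.95 ± 0.27, adjusted p = 0.0246 with the block and 0.217 without, edgeR).

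A peak inside Tcf7l2, at +27.3 kb (chr19:55768774-55769473), had the smallest p among the 73. It held 12.0, 19.9, 19.5, 16.4 and 34.7 CPM in aged and 25.0, 39.2, 52.3, 49.6 and 29.5 in aged Ri libraries. It was higher in 4 of 5 pairs and lower in pair 5, the only pair of batch 3, where the log2 difference was -0.23 against 0.97 and 1.46 in batches 1 and 2. The log2 difference was 0.92 ± 0.20, or 1.9-fold (adjusted p = 0.00104 with the block and 0.0639 without, edgeR). With only the aged and aged Ri libraries and batch, the adjusted p was 0.0293 (edgeR). Young libraries held 18.2, 33.7, 28.4 and 37.7 CPM and overlapped both groups.

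Both Groucho genes with a call went opposite ways. Tle3 -22.5 kb (chr9:61349484-61350183), one of the 2 Tle3 peaks at which no aged library reached a young one, rose with Rhosin from 8.02, 7.03, 12.8, 10.9 and 10.7 CPM to 16.1, 12.8, 27.1, 21.6 and 16.2. This was higher in 5 of 5 pairs and 1.89-fold with the block (log2 0.92 ± 0.21). In batches 1, 2 and 3 the log2 difference was 0.85, 0.97 and 0.55. The age difference at Tle3 was known when the genes were chosen, and the same aged libraries are the baseline here. The rise at this peak is therefore given with no test, though it is counted among the calls with the block. Tle2 +5.4 kb (chr10:81580355-81581054), within the gene, fell from 10.4, 8.79, 15, 17.1 and 17.8 CPM to 10.4, 6.81, 4.84, 6.11 and 7.68. It was lower in 5 of 5 pairs, though hardly in the first, and 2.04-fold lower (log2 -1.03 ± 0.25, adjusted p = 0.0053 with the block and 0.128 without, edgeR). With only the aged and aged Ri libraries and batch, the adjusted p was 0.0485 (edgeR). By batch the log2 difference was -0.16, -1.40 and -1.11. Young libraries, at 12.9, 4.12, 8.52 and 13.5 CPM, overlapped both groups.

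**Figure D4:**
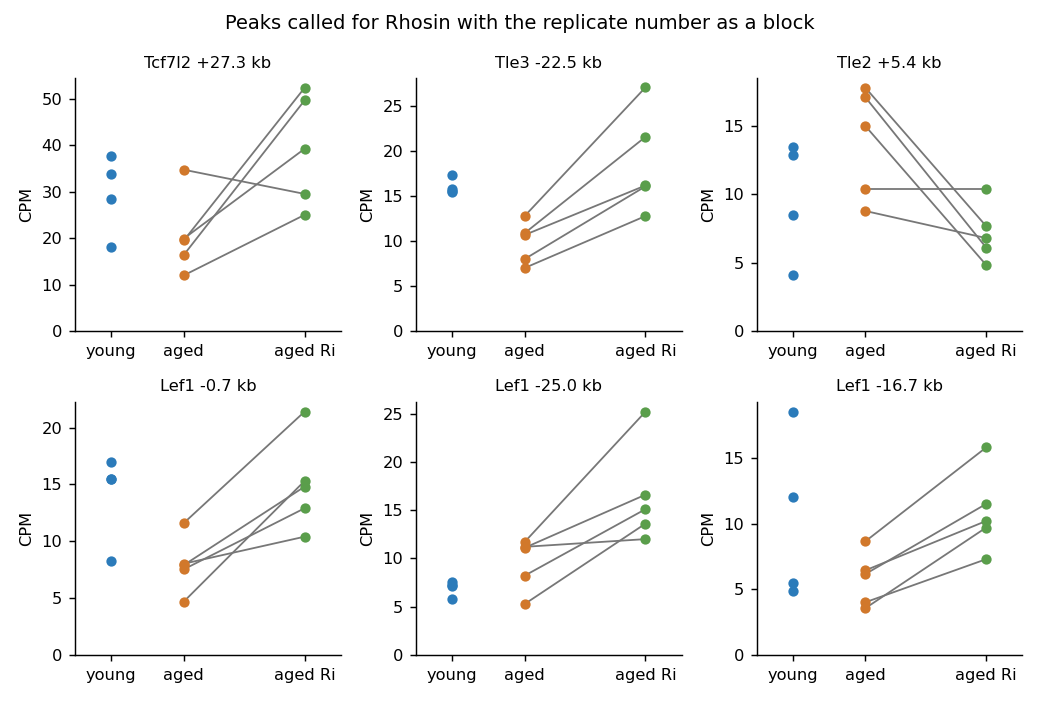
Accessibility (CPM) at the 6 peaks called for Rhosin with the replicate number as a block; lines join same-numbered libraries of the aged and aged Ri groups, and young libraries stand to the left. In 4 panels all 5 lines go up, at Tle2 +5.4 kb all go down or level, and at Tcf7l2 +27.3 kb 1 line goes down.

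At Tcf7, Tle4, Tle1, Ctnnb1 and Axin2 the peaks of smallest p for Rhosin were not called with or without the block. That of Tcf7l1, at +152.7 kb, was not called without the block (log2 -0.67, adjusted p = 0.596, edgeR) and did not pass the filter of the blocked fit. The first group included Tcf7 +20.5 kb (log2 -0.66 ± 0.27 with the block, lower in 5 of 5 pairs), Tle4 +160.4 kb (-0.60 ± 0.25, lower in 4 of 5) and Tle1 +1.7 kb (-0.27 ± 0.20, lower in 5 of 5). For Ctnnb1 -39.5 kb the log2 difference was 0.41 ± 0.32. Axin2 differed by -0.13 ± 0.18 in log2, with 17.7, 16.2, 16.5, 29.8 and 34.8 CPM in aged Ri libraries. The log2 difference at the Ctnnb1 promoter was -0.01 ± 0.19. A missed threshold does not show that these sites were alike in both groups.

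Aged Ri libraries were also set against young ones, which share the young libraries with the age comparison. Of the 73 peaks 8 were called, 3 higher and 5 lower, beside 11.5% of all peaks (7.9% higher and 3.56% lower). The groups did not overlap at 8 peaks, beside 8.85% of all peaks. The median log2 difference was -0.08, against -0.03 over all peaks. Gene-end scaling gave 5 higher and 2 lower, beside 13.3% of all peaks, and loess scaling 2 higher and 7 lower, beside 12.3%. With the covariate of gene-end reads 1 was called, beside 0.994%. The called peaks belonged to Tle3, Tle1, Lef1, Tcf7 and Tcf7l1.

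Both distal Tle3 peaks are among these 8. Their age difference was known when the genes were chosen and the young libraries are the same, so their values are given with no test. The log2 difference of aged Ri from young was 1.70 ± 0.28 at Tle3 -44.0 kb, or 3.26-fold higher. At Tle3 -50.0 kb it was -1.08 ± 0.27, or 2.12-fold lower. By batch the log2 differences were 1.88, 1.41 and 1.59 at -44.0 kb and -0.78, -1.02 and -1.13 at -50.0 kb.

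Tle1 -31.5 kb (chr4:72232093-72232792) was higher, with 4.00, 8.25, 2.84 and 8.22 CPM in young and 13.5, 15.3, 9.68, 12.6 and 11.3 in aged Ri libraries, which do not overlap. The log2 difference was 1.00 ± 0.33 (adjusted p = 0.0444, edgeR), and the call was lost in 8 of the 14 fits that each left out a library, with adjusted p up to 0.259. By batch it was 1.62, 1.01 and 0.42. Aged libraries lay between 5.47 and 13.9 CPM. Lef1 -25.0 kb was 2.44-fold higher than in young cells (log2 1.29 ± 0.30, adjusted p = 0.0041, edgeR), and each of the 14 fits that left out a library kept the call. With the covariate of gene-end reads the call was lost (adjusted p = 0.18, edgeR). By batch the log2 difference was 1.02, 1.3 and 1.09.

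Each of the 4 lower TCF peaks lay in or near Tcf7 and Tcf7l1. Tcf7l1 +53.7 kb (chr6:72734979-72735678) held 26.2, 8.25, 7.10 and 6.77 CPM in young and 8.85, 3.41, 1.61, 2.52 and 5.66 in aged Ri libraries (log2 -1.54 ± 0.37, adjusted p = 0.00575, edgeR). The high young library is replicate 1, and without it the adjusted p was 0.167. By batch the log2 difference was -2.04, -1.50 and -0.22. Tcf7l1 +152.7 kb (chr6:72635965-72636664) held 6.66, 8.93, 9.94 and 4.35 CPM against 3.64, 1.70, 4.52, 1.80 and 2.43, with 1 young library inside the aged Ri range (log2 -1.26 ± 0.40, adjusted p = 0.033, edgeR).

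Tcf7 -27.8 kb (chr11:52310465-52311164) held 19.5, 8.25, 5.68 and 9.67 CPM in young and 13.5, 2.55, 1.29, 1.08 and 6.06 in aged Ri libraries, which overlap (log2 -1.36 ± 0.43, adjusted p = 0.0417, edgeR). Tcf7 +28.5 kb (chr11:52253715-52254414) held 10.2, 6.87, 7.10 and 6.29 against 4.69, 3.41, 3.23, 3.96 and 2.83 CPM without overlap (log2 -1.08 ± 0.36, adjusted p = 0.0438, edgeR). Leaving out 1 library ended the call in 6 of 14 fits for Tcf7l1 +152.7 kb, 8 for Tcf7 -27.8 kb and 9 for Tcf7 +28.5 kb. All 3 were lower in every batch, by log2 -1.11, -1.40 and -0.64 at Tcf7l1 +152.7 kb, -1.51, -1.84 and -0.59 at Tcf7 -27.8 kb, and -1.16, -0.80 and -0.92 at Tcf7 +28.5 kb.

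**Figure D5:**
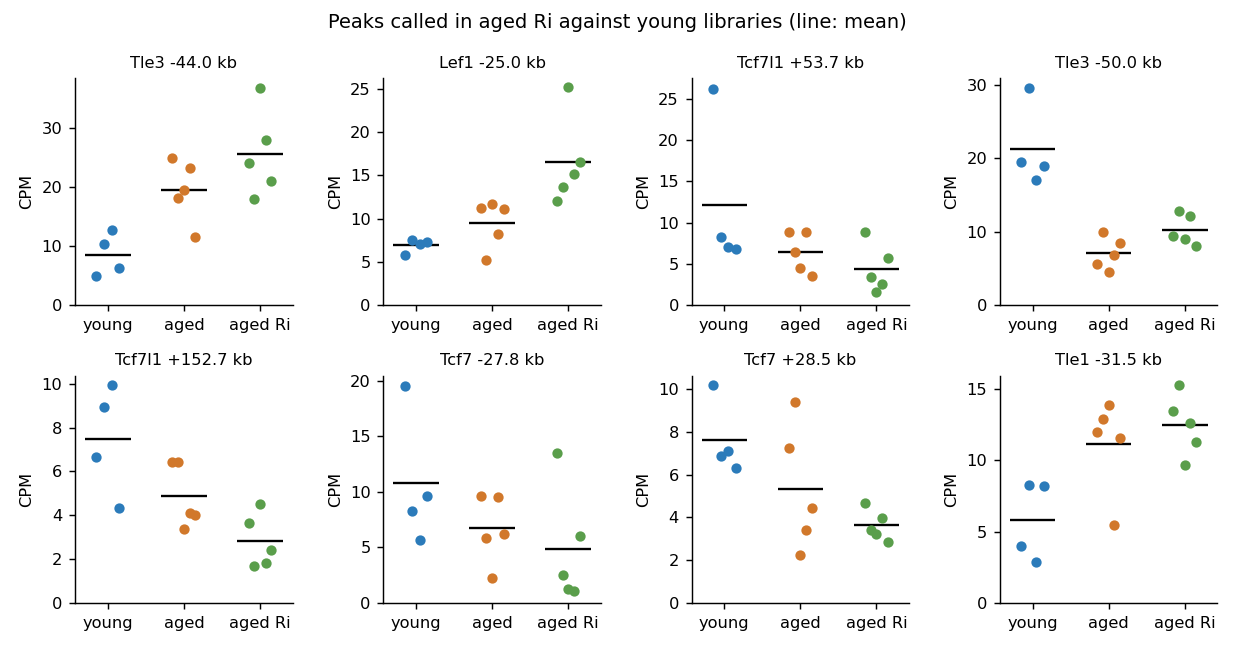
Accessibility (CPM) at the 8 peaks called between aged Ri and young libraries, with aged libraries shown between them; points are libraries and lines group means. Groups of young and aged Ri points are fully apart at Tle3 -44.0 kb, Lef1 -25.0 kb, Tle3 -50.0 kb, Tcf7 +28.5 kb and Tle1 -31.5 kb.

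Summed over all peaks of a gene, none of the 10 genes was called between aged and young cells, beside 2.74% of 16712 genes. At an unadjusted p under 0.05 there were 3 of the 10, beside 24.4% of genes, and DESeq2 called 1, beside 5.11%. Rhosin gave none against aged cells, beside 0.018%, with 1 of the 10 at an unadjusted p under 0.05 (7.67% of genes), none with the block (0.536% of genes) and none by DESeq2 (0.162%). Between aged Ri and young cells 2 were lower, beside 9.03% of genes. Tcf7l1 held 103 ± 14.1 CPM in young (n = 4) and 73.5 ± 7.88 in aged Ri libraries (n = 5), with 75.2 ± 7.47 in aged ones (log2 of aged Ri over young -0.50 ± 0.14, adjusted p = 0.0303, edgeR). The Axin2 sum rests on its single peak, with 36.2 ± 8.76 CPM in young and 23.0 ± 8.70 in aged Ri libraries (log2 -0.61 ± 0.19, adjusted p = 0.049, edgeR). As a peak, among all peaks, it had an adjusted p of 0.0658. With gene-end scaling neither sum was called. The Axin2 sum lost its call in 11 of the 14 fits that each left out a library, and the Tcf7l1 sum in 4.

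Other genes of the pathway were taken from 7 lists with 114 symbols, of which 108 had a peak, and 455 of their 465 peaks were tested. Between aged Ri and young cells 24 of these peaks were called higher and 16 lower, or 8.79%. Of all peaks 11.5% were called, 7.9% higher and 3.56% lower. These groups differ in both age and Rhosin. Among receptors and the R-spondin axis 8 of 90 were called higher and 1 lower, or 10.0%. Ryk +55.3 kb, in a Wnt receptor gene, was 2.1-fold higher (log2 1.07 ± 0.27, adjusted p = 0.00937, edgeR). Its mean was 40.8 CPM in aged and 31.0 in aged Ri libraries, so it was not higher with Rhosin than in aged cells. Among extracellular inhibitors 4 of 34 were called higher and 0 lower, or 11.8%. Of these, 2 lay in or near Sfrp1 and Wif1. At Sfrp1, a decoy for Wnt ligands, the level was 3.14-fold higher (adjusted p = 3.51e-04, edgeR). Group means there were 9.5 CPM in young, 16.8 in aged and 27.0 in aged Ri libraries. At Wif1, a secreted protein that binds Wnt ligands, it was 2.85-fold higher (adjusted p = 0.00104, edgeR). The Wif1 means were 13.6, 42.9 and 39.1 CPM in the same order. Further Groucho genes and partners had 4 of 85 called higher and 8 lower, or 14.1%. They included the promoter of Tle6, a divergent Groucho relative, at 17.0 ± 2.03 CPM in young (n = 4) and 7.90 ± 2.28 in aged Ri libraries (n = 5; adjusted p = 0.0119, edgeR). Aged libraries held 16.3 ± 6.23 CPM at this promoter. The promoter of Ctnnbip1, which encodes an inhibitor of β-catenin binding to TCF, was 1.59-fold lower (adjusted p = 0.0283, edgeR), the only called peak of 57 near nuclear co-factors. Its means were 68.8 CPM in young, 54.3 in aged and 41.5 in aged Ri libraries.

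With Rhosin against aged cells, 1 of the 455 peaks rose, beside 0.446% of all peaks. It lies in Runx1, whose product recruits Groucho, at +43.5 kb, with 6.43 ± 1.76 CPM in aged and 14.5 ± 5.38 in aged Ri libraries (n = 5 each; log2 1.21 ± 0.28, adjusted p = 0.0429, edgeR). With the block 4 rose and 3 fell, beside 4.42% of all peaks (2.89% higher and 1.53% lower). Between aged and young cells 11 peaks were called higher and 5 lower, beside 5.72% of all peaks (4.45% higher and 1.26% lower). Among the peaks of smallest p in each list, the largest rises in log2 were at Wif1 +116.8 kb (1.64) and Ryk +55.3 kb (1.46). Wif1 held 13.6 ± 8.64 CPM in young (n = 4) and 42.9 ± 15.9 in aged libraries (n = 5). Ryk held 15 ± 7.42 and 40.8 ± 9.02. The largest fall was at Wnt6 +12.6 kb (log2 -1.83), with 9.47 ± 7.32 and 2.4 ± 1.55 CPM.

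For 2 of the 73 peaks, the peaks of other genes with the most similar pattern over the 14 libraries were found among 25903 peaks, after sequencing batch was centred. The libraries share depth and group, so these are descriptions. Tle3 -50.0 kb was most like the Ppard promoter (Pearson r = 0.96), the Cdadc1 promoter (0.93) and a peak of Mn1 (0.93). Tcf7l2 +27.3 kb was most like peaks of Nrn1 (0.96), Sptb (0.94) and Itga5 (0.93).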

How the data were processed

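Chromatin accessibility was measured by bulk ATAC-seq in 14 libraries. The authors deposited raw read counts per consensus peak, with the peak positions in mm10. The tools named in the submitters' processing notes are featureCounts, R 4.2.0 and SAMtools 1.14. The aligner, peak caller, duplicate removal and shift of insertion sites are not given in the sources used here. Whether peaks were called per library or on pooled libraries is not given there either.

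The genes, lists and tests were chosen with earlier results of these data known. Peaks were tested on the deposited counts with edgeR 4.0.16 (robust quasi-likelihood, filterByExpr, TMM scaling, group and sequencing batch, all 14 libraries) under R 4.3.3, with Benjamini-Hochberg adjustment over 56235 peaks and a threshold of 0.05. All 73 peaks passed the filter. Sums over the peaks of a gene were tested in the same way. CPM used TMM-scaled library sizes. The tests were checked on simulated counts, with changes put into peaks above a minimum mean count. Of 100 peaks changed by log2 1, 30% were called for aged versus young and 52% for aged Ri versus aged. Of 100 changed by log2 2, 100% were called in both. Of the unchanged peaks, 12 and 16 were called. DESeq2 1.42.0 and other scalings, covariates, filters and samples were tried as alternatives.

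Named peaks were the promoter peaks, every called peak, and per gene the most open peak and that of smallest p for Rhosin. Others are marked as chosen after their values were seen. A gene of the marker lists is not reported here.

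The replicate numbers pair aged with aged Ri libraries. Deviations from group means correlated within every pair (r = 0.365, 0.137, 0.645, 0.276 and 0.544 over 25903 peaks). Pairs also share a sequencing batch, and with batch removed r was 0.087, -0.055, 0.472, 0.218 and -0.227. Between aged and aged Ri libraries of unlike number, r ran from -0.454 to 0.342, and from -0.53 to 0.403 with batch removed. The pairing comes from the shared numbers in the labels, whose treatment note has Rhosin added to 1 of the aged cell samples.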

Additional observations from a re-analysis of the deposited data

Results flagged for a closer look

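Of 117 groups of 4 or 5 libraries checked, over named peaks and locus sums, 10 had a library that stood apart from the rest of its group by Dixon's criterion. Chance alone gives about 1 in 20 such groups.

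Aged replicate 5 stood apart at Axin2 +0.1 kb, with 39.6 CPM against 19.9 to 24 in the other aged libraries. The Axin2 sum is the same peak and the same 39.6 CPM. It also stood apart at the Ctnnb1 promoter (Ctnnb1 +0.0 kb), with 69.0 CPM against 22.2 to 32.2. The share of reads at gene ends in this library was 49.6%, the highest of the aged group. Its part in these values was not tested.

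Aged Ri replicate 1 was low at the Tle3 promoter (Tle3 +0.1 kb), with 19.3 CPM against 34.2 to 38.3, and in the Tle1 sum, with 78.6 CPM against 126 to 138. Its share of reads at gene ends was 35.9%, the lowest of all libraries, and the part of this in the values was not tested.

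Young replicate 1 stood apart at Tcf7l1 +53.7 kb, with 26.2 CPM against 6.77 to 8.25. Young replicate 4 did so at Tle3 -22.5 kb, with 17.4 CPM against a narrow 15.5 to 15.8. Aged replicate 4 was low at Tle1 -31.5 kb, with 5.47 CPM against 11.6 to 13.9. Aged replicate 3 was high in the Tcf7l2 sum, with 227 CPM against 182 to 184. Aged Ri replicate 3 was high at Ctnnb1 -39.5 kb, with 8.72 CPM against 5.73 to 6.06.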

How the results depend on the processing

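Libraries of 765533 to 3176246 reads in peaks gave a median of 7 to 30 reads per peak, which limits the size of difference that can be called. Each count of the 73 peaks is followed by the share of all peaks called at the same setting. For aged versus young, 3 were called (5.72%), 5 with gene-end scaling (7.74%) and 5 with loess scaling (6.18%). With the share of gene-end reads as covariate 0 were called (0.258%). Without young libraries 1 and 3 together, an alternative chosen after seeing the data, 1 was called (0.487%). Of the 55 peaks within 10 kb of a gene, 1 was called in the fit over all peaks (5.72%). When 1 library was left out, 1 to 7 of the 73 were called (1.41% to 11.5%). For aged Ri versus aged, 0 were called (0.446%), and 1 with loess scaling (0.43%), 1 with the covariate (0.606%), 4 with only the 2 groups fitted (1.58%), 6 with the replicate block (4.42%), 3 without young libraries 1 and 3 (1.33%), and 0 to 2 when 1 library was left out (0.0246% to 0.945%). The replicate block changed no locus call in this comparison. For aged Ri versus young, 8 were called (11.5%), 1 with the covariate (0.994%) and 4 with no batch term (7.48%). With only the 2 groups 5 were called (8.94%), and 3 without young libraries 1 and 3 (2.72%). Of the 55 peaks within 10 kb, 3 were called in the fit over all peaks (11.5%). When 1 library was left out, 3 to 13 of the 73 were called (5.31% to 16.3%). For locus sums, with shares of all genes, aged versus young went from 0 (2.74%) to 1 with DESeq2 (5.11%) and 1 with only the 2 groups (7.6%), and to 0 to 2 when 1 library was left out (0.198% to 9.05%). Aged Ri versus young went from 2 (9.03%) to 0 with gene-end scaling (13%), loess scaling (12.5%), the covariate (0.389%), no batch term (3.47%), only the 2 groups (3.95%), or without young libraries 1 and 3 (0.37%), and to 0 to 3 when 1 library was left out (2.17% to 19.6%). Tcf7 +9.2 kb reversed from -1.13 to 0.05 in log2 (aged versus young) without young libraries 1 and 3. Fewer libraries enter where some are left out, and fewer peaks within 10 kb. For the other settings the cause was not tested. DESeq2 gave no adjusted p for 14, 17 and 8 of the 73 peaks in the 3 comparisons.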
